A study of Mus musculus with 6 samples.

Results

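Ribosome biogenesis was followed through 38 nucleolar and rRNA-processing genes of the mouse, typical targets of MYC proteins, each located by its Entrez gene ID among the 36528 gene IDs of the count tables. All 38 were found and all passed the filter on low counts. The cells are HOXB-8 cells, a bone marrow line of myeloid progenitors that the homeobox factor HOXB8 keeps dividing, called iMACs in the extraction notes. The 3 Parental libraries are Irf2 wild type with a control guide RNA named Luc, and the 3 IRF2_KO libraries come from a line made with 1 guide RNA against Irf2 (gRNA2), the gene of an interferon regulatory transcription factor. The labels do not say whether libraries of 1 group are separate cultures, or whether the knockout line is 1 clone. A p-value here therefore reflects library-to-library spread alone, possibly only technical.

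Ribosomes are assembled in the nucleolus. RNA polymerase I transcribes the long precursor of ribosomal RNA, small nucleolar RNPs (snoRNPs) guide its chemical modification, and assembly factors cut, fold and export the small and the large subunit. MYC proteins bind the CACGTG E-box as partners of MAX and are known to raise both the transcription of ribosomal RNA and the genes of this machinery. Myc and Mycn are close relatives, and Mycn is known from early haematopoietic and neural progenitors.

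The E-box itself was looked for in promoter windows of 300 bases from RefSeq (build GRCm38.p6), which reach from 250 bases before to 50 bases after an annotated start. Windows were present for 33 of the 38 genes, not for Npm1, Fbl, Rrp12, Bop1 and Rrs1. CACGTG, which reads the same on both strands, occurred in 8 of the 33 genes (24.2%), against 1173 of 9884 tested genes with a window (11.9%) and 8.09% of all 27025 genes in the table. The 8 sites are shown because they give the letters that MYC and MAX proteins are known to bind, with the E-box in capitals and the sequence on the strand of the gene.
Nop2: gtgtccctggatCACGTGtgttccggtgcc
Imp4: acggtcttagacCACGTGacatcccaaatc
Mybbp1a: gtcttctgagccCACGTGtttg
Utp20: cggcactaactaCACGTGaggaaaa
Utp4: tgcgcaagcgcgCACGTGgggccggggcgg
Wdr43: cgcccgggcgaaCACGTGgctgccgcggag
Tsr1: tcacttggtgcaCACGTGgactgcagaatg
Pes1: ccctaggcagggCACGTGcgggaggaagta

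These stretches lie on GRCm38.p6 at chr6:125131811-125131840 (Nop2, plus strand), chr1:34439696-34439725 (Imp4, plus), chr11:72441355-72441376 (Mybbp1a, plus), chr10:88826765-88826789 (Utp20, minus), chr8:106893643-106893672 (Utp4, plus), chr17:71616220-71616249 (Wdr43, plus), chr11:74898092-74898121 (Tsr1, plus) and chr11:3963965-3963994 (Pes1, plus). The E-boxes of Nop2 and Imp4 begin 60 and 121 bases upstream of the annotated start. The other 6 lie downstream of it, in the first transcribed bases, beginning at base 3 in Pes1, 16 in Utp4, 18 in Wdr43, 25 in Tsr1, 38 in Utp20 and 41 in Mybbp1a. Of the 36 member windows, 16.7% held CACGTG in those last 50 bases, against 1.56% of the 12593 windows of tested genes. No plan set this stretch apart in advance, and the contrast was not tested. Over whole windows the shares were 22.2% of member windows and 10% of windows of tested genes. Of other genes of ribosome assembly with a window, 8 of 32 small subunit genes, 7 of 35 large subunit genes and 1 of 10 RNA polymerase I genes held the E-box, as did 1 of 18 proliferation genes. The pair GAAA and GAAA with any 2 bases between them, searched on both strands as letters that interferon regulatory factors are known to bind, occurred in 0 of the 33 member genes and in 3.81% of tested genes with a window. A match is a description of letters and not a bound site.

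The 6 libraries held 29070160 to 39925038 counts each, and every member had at least 270 reads in each library. Levels below are CPM, reads of a gene relative to its library's TMM-scaled size, as mean ± SD with n = 3 per group. Hoxb8, the gene that names the line, was not called (log2 fold change 0.09, edgeR adjusted p = 0.142). Of 9 tested progenitor markers, 5 were lower: Kit (log2 fold change -3.26), Elane (-1.69), Cebpa (-0.53), Mpo (-0.52) and Myb (-0.44). The granule protease gene Ctsg was higher (0.13). Prtn3 (0.08) and Spi1 (0.03) were not called, and Cd34 was too low to test. Irf2 stood at 41.5 ± 0.787 and 39.1 ± 1.89 CPM (edgeR adjusted p = 0.209), which does not check the labels, since a frameshift need not change the amount of a transcript. Over the 38 members, the deviations of Parental 1 and IRF2_KO 1 from their group means went together (Pearson r = 0.819 across 38 genes of shared libraries), so member counts are also given without both.

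Comparison of IRF2_KO with Parental asked whether these genes follow the level of Mycn. For Mycn, the 3 Parental libraries gave 81.1, 83.9 and 83.2 CPM and the 3 IRF2_KO libraries 4.20, 4.53 and 4.52 CPM. All IRF2_KO libraries were far below all Parental libraries, a fall of 18.7-fold (log2 fold change -4.23, SE 0.07, edgeR adjusted p = 1.33e-18). Of the 38 ribosome biogenesis genes, 35 fell, 1 rose (Dkc1) and 2 did not pass the test (Fbl and Ddx10), by edgeR's quasi-likelihood test at an adjusted p of 0.05. Of all 13353 genes tested, 23.6% were called lower and 23.6% higher, 47.2% in all. Among the 5718 genes with mean levels from 37.8 to 590 CPM, the range that holds 36 of the members, 29.6% were called lower.

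The falls were small. The median log2 fold change of the 38 genes was -0.32, a fall of 1.25-fold, against -0.01 over all tested genes, and the members ran from -0.50 to 0.21. No member changed 1.5-fold or more. Every IRF2_KO library was below every Parental library in 33 members and above in 1, against 27.6% and 26.4% of all tested genes. Added up, the 38 genes held 8493, 8527 and 8466 CPM in Parental and 6883, 6802 and 6853 CPM in IRF2_KO. The 2 groups were thus apart by 19.4% of the Parental sum and varied little within themselves. Without Parental 1 and IRF2_KO 1 the counts were again 35 lower and 1 higher.

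**Figure D1:**
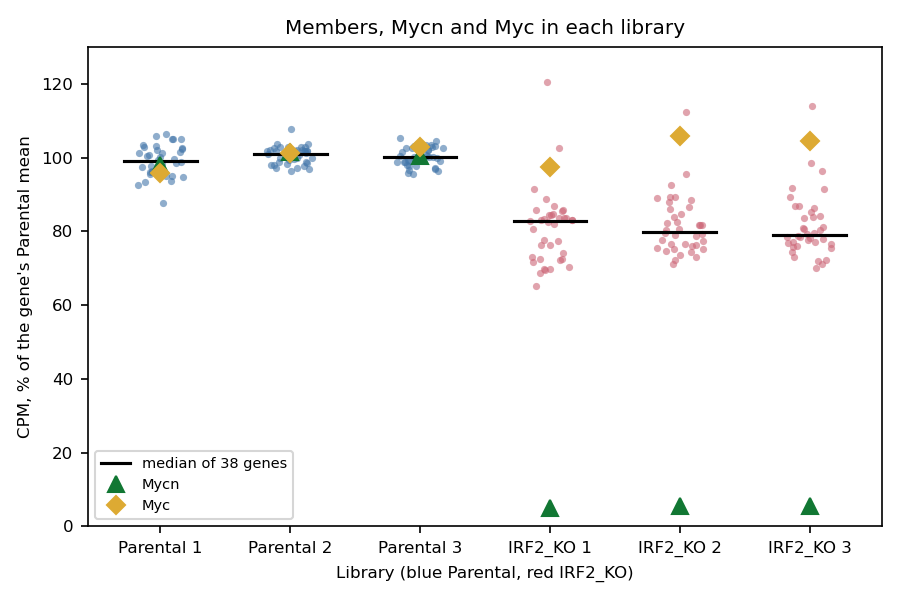
CPM of each of the 38 ribosome biogenesis genes (dots), Mycn (triangles) and Myc (diamonds) in the 6 libraries, as a percent of the gene's Parental mean; black bars are medians of the 38 genes. In the IRF2_KO libraries the medians are 82.7%, 79.9% and 79.1%, Mycn is at 5.08% to 5.48% and Myc at 97.5% to 106%.

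The direction of Mycn was therefore shared by 35 of the 38 genes, but not its size. Because the 6 libraries form 2 separate groups, no correlation of members with Mycn across libraries is given. Myc itself was not called (log2 fold change 0.04, SE 0.04, edgeR adjusted p = 0.526). Per length, on the deposited RPKM scale, Myc stood at 214, 226 and 229 in Parental and at 218, 239 and 234 in IRF2_KO, while Mycn stood at 30.4, 31.4 and 31.1 and then at 1.57, 1.72 and 1.70. Myc was thus the more abundant relative in all 6 libraries, 7.04 to 7.37 times the RPKM of Mycn in Parental. Mycl had at most 2 reads in any library. The summed RPKM of the 3 genes was 254 ± 8.29 in Parental and 232 ± 11.2 in IRF2_KO, and Mycn made up 12.2% ± 0.244 of it in Parental and 0.717% ± 0.0039 in IRF2_KO (SD, n = 3).

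Their partners changed too. Max, the obligate partner of MYC proteins, fell from 134, 129 and 133 CPM to 98.8, 99.8 and 96.3 CPM (log2 fold change -0.43, SE 0.04, edgeR adjusted p = 2.69e-07). Mxd1, which encodes a MAX partner that represses MYC targets, rose from 38, 39.9 and 40.4 CPM to 85.7, 88.1 and 90.7 CPM (log2 fold change 1.16, SE 0.05, edgeR adjusted p = 1.49e-12). Neither gene's groups overlapped. Of 12 tested genes of the MYC network, 5 were lower and 1 higher. The other called members were Mlxipl (log2 fold change -2.14, at only 0.962 ± 0.113 CPM in Parental), Mga (-0.24) and Mlx (-0.16). Mxi1 (0.08), Mxd4 (0.12), Mxd3 (-0.12), Mnt (0.03) and Mlxip (0.02) did not pass.

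**Figure D2:**
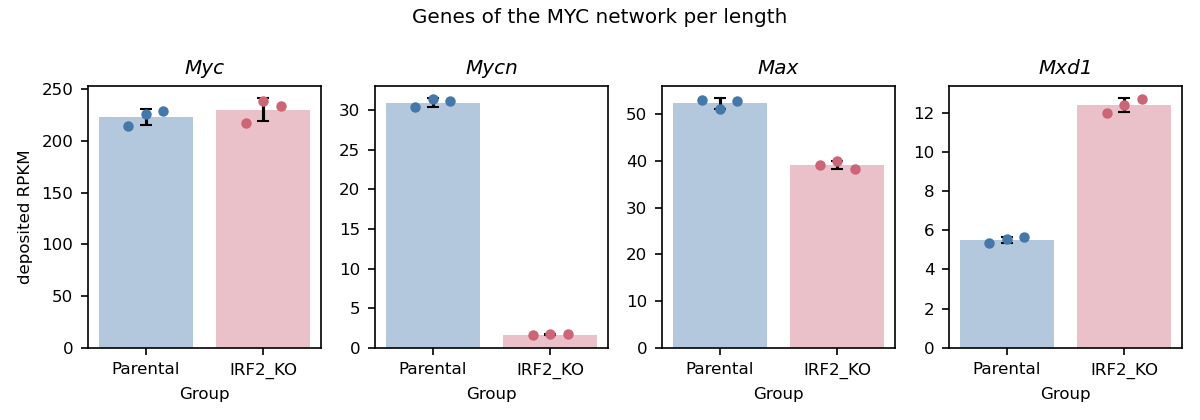
Deposited RPKM of Myc, Mycn, Max and Mxd1 in Parental and IRF2_KO, with each library as a dot, bars at the group mean and error bars of 1 SD (n = 3); each panel has its own axis from 0. Mean RPKM fell from 31.0 to 1.66 for Mycn and from 52.3 to 39.2 for Max, rose from 5.50 to 12.4 for Mxd1, and was 223 and 230 for Myc, whose difference did not pass the test.

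The RNA polymerase I genes both fell, by different amounts. Polr1b, the second-largest subunit, fell from 116, 119.9 and 116 CPM to 84.2, 85.7 and 82.3 CPM (log2 fold change -0.48, SE 0.04, edgeR adjusted p = 6.97e-08). Polr1a, the largest and catalytic subunit, fell from 134, 145 and 144 CPM to 118, 121 and 129 CPM (log2 fold change -0.20, SE 0.05, edgeR adjusted p = 0.0023). The groups did not overlap for either. The ratio of Polr1b to Polr1a RPKM was 1.31 ± 0.0461 in Parental and 1.08 ± 0.0654 in IRF2_KO.

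The genes of abundant nucleolar proteins fell in 4 of 4. Mybbp1a, a MYB-binding protein of the nucleolus, fell from 635.5, 672 and 675 CPM to 511.5, 525 and 519 CPM (log2 fold change -0.35, SE 0.04, edgeR adjusted p = 1.31e-06), with no overlap. Ncl, nucleolin, the most abundant member by counts, fell from 2004 ± 56.2 to 1617 ± 57.1 CPM, and the RNA helicase gene Ddx21 from 471 ± 7.98 to 377.5 ± 9.12 CPM. Npm1, the chaperone nucleophosmin, stood at 293, 274 and 268 CPM and then at 247, 247 and 268 CPM. Its groups overlapped, and its small fall (log2 fold change -0.13, edgeR adjusted p = 0.0278) was lost when any of 4 libraries was left out: Parental 1 (-0.10, edgeR adjusted p = 0.112), Parental 2 (0.0546), IRF2_KO 1 (0.0629) or IRF2_KO 2 (0.0708). Over all its alternatives other than the test against 1.5-fold, the adjusted p of Npm1 ran from 0.00856 to 0.158.

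Box C/D snoRNPs place methyl groups on ribosomal RNA, and 3 of their 4 genes fell. Nop56, a scaffold of these particles, fell from 243, 249 and 247 CPM to 202.5, 203 and 199 CPM (log2 fold change -0.29, SE 0.04, edgeR adjusted p = 8.93e-06), and its partner Nop58 from 243 ± 12.3 to 192 ± 9.43 CPM. Rrp9, which marks the snoRNP that starts small subunit processing, fell by 0.42 on the log2 scale (SE 0.06). Fbl, fibrillarin, the methyltransferase itself, stood at 11.0, 13.5 and 13.1 CPM and then at 9.07, 11.2 and 11.5 CPM. These groups overlapped and the difference did not pass (log2 fold change -0.24, SE 0.10, edgeR adjusted p = 0.061). It passed without Parental 1 (-0.33, edgeR adjusted p = 0.014), without IRF2_KO 2 or IRF2_KO 3, without both Parental 1 and IRF2_KO 1, with library size alone and with no filter. Over all its alternatives other than the test against 1.5-fold, the adjusted p of Fbl ran from 0.014 to 0.266. Fbl was the lowest member per length, at 9.70 RPKM, and its level is uncertain because RefSeq lists a pseudogene copy and the tables hold uniquely aligned reads alone.

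Box H/ACA snoRNPs turn uridines of ribosomal RNA into pseudouridine, and here the members parted. Dkc1 (chromosome X, 75095854 to 75109776), dyskerin, the pseudouridine synthase of the particle, rose from 272, 254 and 250.4 CPM to 311.5, 291 and 295 CPM (log2 fold change 0.21, SE 0.04, edgeR adjusted p = 0.000896). All IRF2_KO libraries were above all Parental libraries. The genes of the other core proteins of the same particle fell. Nhp2 fell by 0.35 on the log2 scale (SE 0.05), and Gar1 from 76.8 ± 1.99 to 63.5 ± 3.48 CPM. Nop10, which encodes the smallest of these proteins, fell from 145, 142 and 149 CPM to 124.5, 135 and 125.5 CPM (log2 fold change -0.18, SE 0.05, edgeR adjusted p = 0.0033). Nolc1 (chromosome 19, 46075847 to 46085543), which encodes a snoRNP chaperone of the nucleolus and Cajal bodies, had the smallest adjusted p of the members, falling from 437, 456 and 448 CPM to 308, 322.5 and 322 CPM (log2 fold change -0.49, SE 0.04, edgeR adjusted p = 1.60e-08). Dkc1 shares 44 bases of its span with Mpp1, which was not called (log2 fold change 0.01, edgeR adjusted p = 0.933).

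Within complexes, 9 ratios of RPKM, chosen after the fold changes were seen, were compared between the groups, each with an exact two-sided permutation test, which cannot go below p = 0.1 with 3 libraries against 3. The ratio of Dkc1 to Nhp2 was 0.393, 0.351 and 0.338 in Parental and 0.595, 0.477 and 0.526 in IRF2_KO. Dkc1 to Gar1 went from 1.66 ± 0.102 to 2.33 ± 0.217 and Dkc1 to Nop10 from 0.456 ± 0.0256 to 0.598 ± 0.0438. In all 3 ratios the groups did not overlap (exact permutation p = 0.1 each, 0.129 after Benjamini-Hochberg adjustment over the 9). That separation was fixed by the choice, since Dkc1 was above and Gar1, Nhp2 and Nop10 were below in every IRF2_KO library, so it adds no support. Bop1 to Pes1, Bop1 to Wdr12, Polr1b to Polr1a and Imp4 to Imp3 also did not overlap (exact permutation p = 0.1 each). These pairs too were chosen with their unlike falls known, so their separation adds no support either. The ratio of the scaffold protein genes Nop56 and Nop58 was 0.830 ± 0.051 and 0.855 ± 0.0402, with overlapping groups (exact permutation p = 0.6, log2 difference 0.04).

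**Figure D3:**
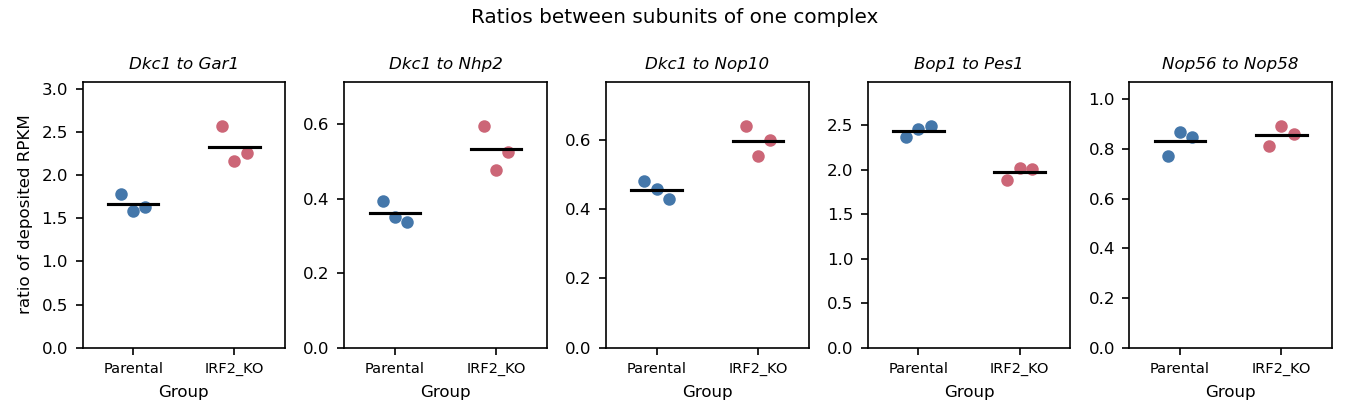
Ratios of deposited RPKM between genes of one complex in each library (dots) with group means (lines), each panel from 0. Every IRF2_KO library lies above every Parental library for Dkc1 to Gar1, Nhp2 and Nop10, and below for Bop1 to Pes1, while Nop56 to Nop58 overlaps.

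Genes of small subunit assembly factors formed the largest set, with 11 of 12 lower and a median log2 fold change of -0.32. Noc4l, a nucleolar assembly factor, fell from 147.5, 158 and 161 CPM to 109, 114 and 111 CPM (log2 fold change -0.48, SE 0.05, edgeR adjusted p = 1.40e-07). Imp4, a protein of the small subunit processome, fell from 157.5, 166 and 170.4 CPM to 119.5, 124 and 126 CPM (log2 fold change -0.42, SE 0.05, edgeR adjusted p = 6.02e-07). Neither overlapped between groups. Imp3, which acts in the same complex as Imp4, stood at 50.6, 55.2 and 54.1 CPM and then at 44.6, 51.0 and 47.6 CPM. Its groups overlapped, and its call (log2 fold change -0.16, edgeR adjusted p = 0.0289) was lost with DESeq2 (adjusted p = 0.0541). It was also lost when Parental 2, Parental 3, IRF2_KO 1 or IRF2_KO 3 was left out (-0.16 to -0.11, edgeR adjusted p 0.087 to 0.134).

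Genes of processome proteins that bind the nascent precursor early were Utp4, Utp15, Wdr43 and Heatr1. Their values were close, with log2 fold changes of -0.33, -0.30, -0.32 and -0.32. Utp20 fell from 140 ± 2.94 to 110 ± 10.2 CPM, Rrp12, an export factor, from 109.5 ± 6.03 to 85.4 ± 2.43 CPM, and Tsr1, a late factor of the small subunit, from 138 ± 1.59 to 111 ± 4.63 CPM. Nop14 showed the narrowest Parental spread, at 94.9, 94.7 and 94.9 CPM, and fell to 82.3, 79.6 and 80.9 CPM (log2 fold change -0.23, SE 0.04, edgeR adjusted p = 0.000288). Ddx10, an RNA helicase, stood at 68.0, 64.4 and 66.6 CPM and then at 68.0, 59.1 and 65.4 CPM. These groups overlapped throughout and the difference did not pass (log2 fold change -0.05, SE 0.05, edgeR adjusted p = 0.491).

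The genes of the PeBoW complex, which processes the precursor of the large subunit and consists of Pes1, Bop1 and Wdr12, fell in 3 of 3. Bop1 (chromosome 15, 76452988 to 76477249) had the largest fall of all members, from 200, 222 and 221 CPM to 140, 159 and 154 CPM (log2 fold change -0.50, SE 0.05, edgeR adjusted p = 5.06e-07). Pes1 fell from 99.5, 106.5 and 104 CPM to 87.2, 92.4 and 89.8 CPM (log2 fold change -0.20, SE 0.05, edgeR adjusted p = 0.0014), and Wdr12 from 55.8 ± 2.21 to 46.0 ± 0.918 CPM. The groups of all 3 genes stood apart. The RPKM ratio of Bop1 to Pes1 went from 2.43 ± 0.0662 to 1.97 ± 0.0781 without overlap (exact permutation p = 0.1). That of Wdr12 to Pes1 overlapped (0.466 ± 0.0278 and 0.442 ± 0.0102). Both pairs were chosen after the fold changes were seen, so this contrast adds no support.

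Genes of large subunit factors fell in 8 of 8, with a median log2 fold change of -0.36. Nop2, a cytosine methyltransferase of ribosomal RNA, fell from 161, 170.4 and 172 CPM to 117, 125 and 122 CPM (log2 fold change -0.47, SE 0.05, edgeR adjusted p = 1.76e-07). Wdr74 fell from 100.3, 105.5 and 107 CPM to 72.6, 80.0 and 77.8 CPM (log2 fold change -0.44, SE 0.05, edgeR adjusted p = 9.02e-07). Noc2l, part of a dimer that travels with the large subunit precursor, fell from 352, 380.0 and 379.8 CPM to 269, 280.0 and 281 CPM (log2 fold change -0.42, SE 0.04, edgeR adjusted p = 3.14e-07). Every IRF2_KO library of these 3 genes was below every Parental library. Noc3l fell by 0.32 on the log2 scale, as did Nop16 by 0.37, Gnl3, nucleostemin, by 0.34, and the helicase gene Ddx18 by 0.27. Rrs1, which brings a small ribosomal RNA into the large subunit, fell least, from 138, 134 and 137 CPM to 125, 119.8 and 115 CPM (log2 fold change -0.19, SE 0.04, edgeR adjusted p = 0.00244).

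**Figure D4:**
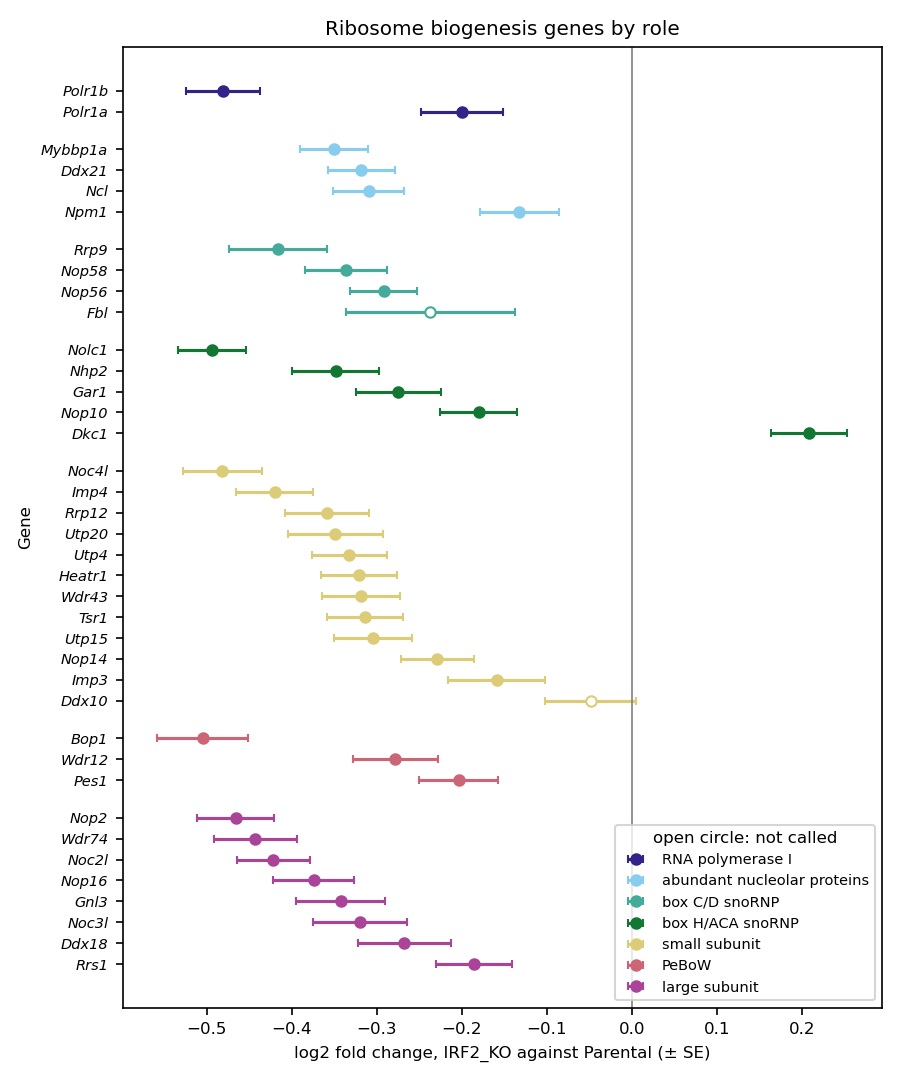
Log2 fold change of each of the 38 genes, IRF2_KO against Parental, with its standard error, coloured by role; filled circles passed edgeR's test at an adjusted p of 0.05 and open circles did not. All but Dkc1 (0.21) lie below 0, from Ddx10 at -0.05 to Bop1 at -0.50.

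Per length, the members spanned a wide range. By mean RPKM over the 6 libraries the highest were Nhp2 (217), Ncl (202), Nop10 (181), Mybbp1a (140) and Noc2l (106), and the lowest Fbl (9.70), Noc3l (11.0), Utp20 (13.7), Wdr12 (14.7) and Ddx18 (15.3). Genes of subunits that meet in 1 particle were thus listed at unlike levels. In Parental, Nhp2 stood at 242 RPKM and Gar1 at 52.5, and Bop1 at 84.0 and Wdr12 at 16.1. Such orders between genes depend on the length by which each RPKM was divided. By counts, Ncl stood at 2004 CPM in Parental and Nhp2 at 250, but by RPKM at 223 and 242. Their longest transcripts have 8202 and 1042 bases. Whether the lengths behind the RPKM match the transcripts present was not tested, so these orders need not be those of transcript number. The members' fold changes had a correlation of -0.431 with the GC content of their longest transcript (Pearson, across 38 genes of the same libraries), from 40.4% to 59.9% GC, and of -0.0858 with its log2 length. Over 12168 tested genes the correlation with GC was -0.0203, and with the trend over GC and length removed from all genes the members' median was -0.33. That trend was fitted over all genes, and a correlation of -0.256 with GC remained among the members after its removal. Bop1, which had the largest fall before removal, was then at -0.455, and the lowest member at -0.472. The longest transcript need not be the gene model that was counted, which limits these values. It has 10012 bases for Wdr12 and 9507 for Nop58, against a member median of 3018. In Parental, Wdr12 stood at 55.8 CPM and 16.1 RPKM, and Nop58 at 242.8 CPM and 109.8 RPKM. Their RPKM were thus divided by much shorter lengths, and their longest transcripts were not the models counted.

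Ribosome assembly genes outside the 38 were also more often lower than higher. Of 90 other genes of RNA polymerase I and of the small and large subunit, 62 were lower and 4 higher, with a median log2 fold change of -0.22. In the polymerase I list, 7 of 10 tested were lower, among them Ubtf, the factor that opens ribosomal DNA (log2 fold change -0.33), Taf1c (-0.45) and Polr1c (-0.27), and Taf1b was higher (0.20). For the small subunit, 25 of 41 were lower, led by Tsr2 (-0.50), Rcl1 (-0.40) and the acetyltransferase gene Nat10 (-0.38), and Krr1 was higher (0.19). For the large subunit, 30 of 39 were lower, with the smallest adjusted p for Ddx51 (log2 fold change -0.60), Rrp15 (-0.51) and Ftsj3 (-0.35), while Ddx24 (0.18) and Nop53 (0.13) were higher. The RNA exosome, which trims ribosomal RNA ends, had 7 of 12 lower and none higher, with Exosc1 and Exosc6 at -0.46 and Dis3 at -0.32.

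Genes that MYC is known to drive outside the nucleolus were mixed. Nucleotide and polyamine synthesis genes were lower in 12 of 14 and higher in none, among them Srm, spermidine synthase (log2 fold change -0.54), Cad, which starts pyrimidine synthesis (-0.37), and Atic of purine synthesis (-0.28). Translation, chaperone and other targets were lower in 13 of 21 and higher in 4, with the transferrin receptor gene Tfrc at -0.58 and the arginine methyltransferase gene Prmt5 at -0.35 but the cyclin gene Ccnd2 at 0.66. Of 8 host genes of small nucleolar RNAs, 3 were lower, led by Snhg1 (-0.45), and 1, Snhg6, was higher (0.30). Proliferation genes were lower in 3 of 22 and higher in 3, with a median of -0.05. The higher ones were Bub1 (0.50), Rrm2 (0.37) and Mcm6 (0.20), the lower ones Tyms (-0.25), Mcm5 (-0.20) and Ccnb1 (-0.18), and Mki67 did not pass (0.16).

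**Figure D5:**
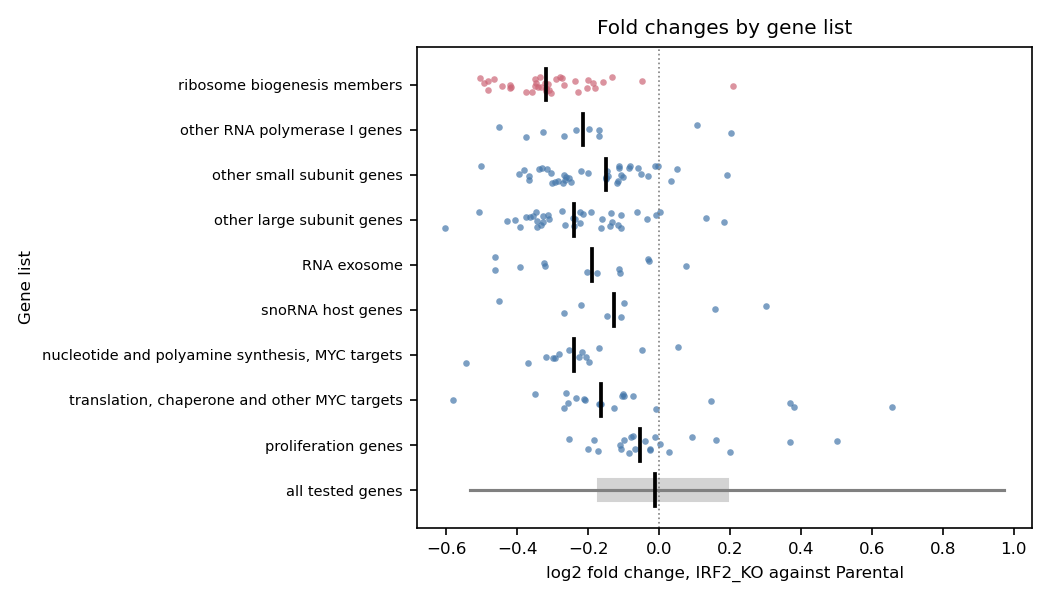
Log2 fold changes, IRF2_KO against Parental, of tested genes in each list (dots) with list medians (black bars); for all 13353 tested genes the box spans the middle 50% and the line the 5th to 95th percentile. The medians are -0.32 for the 38 ribosome biogenesis genes, -0.22, -0.15 and -0.24 for the other polymerase I, small and large subunit genes, -0.05 for proliferation genes and -0.01 for all genes.

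Markers of other cell types moved with the same groups. Macrophage markers were higher in 8 of 9 tested genes, and their summed level was 566 to 576.5 CPM in Parental and 1671 to 1674.5 CPM in IRF2_KO. The smallest adjusted p in that list were those of Lpl (log2 fold change 2.72), Gpnmb (1.53) and Lyz2 (1.32). Named after their values were seen, Siglec1 had the largest change (4.69, at most 1.96 CPM in any library) and Csf1r was also higher (1.96). Of 13 macrophage genes summed here, C1qb had no read in any library, and C1qa and C1qc had at most 1. Late neutrophil markers were higher in 6 of 10 and lower in 2 (341 to 348 CPM, then 398 to 408 CPM), and lymphoid, erythroid and stromal markers summed to at most 2.11 CPM per list in any library. The part of these shifts in the lower ribosome biogenesis genes was not tested, and in bulk samples fewer cells of a type and less RNA per cell cannot be told apart. RefSeq spans of 10 members overlap another tested gene, and whether counting used strand is not given in the sources used here; of the 28 members without such an overlap, 26 fell.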

How the data were processed

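Counts per gene of 6 mouse RNA libraries were analysed, 3 labelled Parental and 3 labelled IRF2_KO by their group label. Replicate numbers follow record order and pair nothing. Per the submitters' processing notes, alignment by the authors used GSNAP and GRCm38; neither version nor annotation is given in the sources used here. The deposited counts are uniquely aligned reads per gene model and the deposited RPKM values are size-factor adjusted, per the file headers; RPKM served only for levels and ratios between genes. Per the labels' protocols the kit was for stranded total RNA, but another label gives the molecule as polyA RNA.

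Symbols and coordinates came from RefSeq (GRCm38.p6) for 31049 of 36528 IDs; of 241 genes in the other lists 4 were unmatched. In edgeR 4.0.16 (R 4.3.3), filterByExpr kept 13353 genes, scaled by TMM and tested two-sided by robust quasi-likelihood, with p-values adjusted (Benjamini-Hochberg) over all genes and a threshold of 0.05. Standard errors are the log2 fold change over the square root of F. Mean chi-square per gene was 2.78 to 10.1 within and 63.7 to 73.4 between groups (sampling noise gives 1), so no library was treated as a repeat. The rule for named genes gave per-library values to Mycn, to the 8 called members at each end of the fold changes and to the smallest adjusted p of each role, and up to 3 genes to each other list; other names were chosen after their values were seen. The members and lists were chosen with earlier results of these data known. Alternatives were other scalings, DESeq2 1.42.0, limma-voom (limma 3.58.1), other filters and thresholds, removal of the 100 most abundant genes, and each library left out.

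On simulated data with 13227 genes tested, 46.9% of 49 genes changed 1.2-fold and 83.7% of 49 changed 1.5-fold were found, with 6.43% false calls. The simulation changed only 49 or 50 tested genes at each of 1.2, 1.5, 2 and 4-fold, whereas 47.2% of genes were called in the data. Its adjusted threshold was therefore stricter, and its recovery does not describe the power of the real comparison. Promoter windows were checked for orientation: 27 of 36 had bases after the start in a GENCODE M21 transcript of the gene on the same strand, and 0 on the other. One gene of the macrophage marker list is not reported here.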

Additional observations from a re-analysis of the deposited data

How the results depend on the processing

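Mycn was called lower under each alternative, with log2 fold changes from -4.26 to -4.18. The count of lower members was 33 to 36, and that of higher members 1, under each alternative but the test against a 1.5-fold change (glmTreat in edgeR), which called 0 members lower and 0 higher, 0 at an unadjusted p under 0.05, and 1019 of all genes against 6296. That test asks for a larger change than any member showed. Leaving out 1 library at a time gave 33 to 35 lower members, 1 higher, 5256 to 6216 genes called in all and a member median of -0.329 to -0.304. With library size alone the median was -0.350, and the median of all genes moved to -0.04. Ddx10, not called in any of these fits, ran from -0.0837 to 0.00495 with 1 library left out and was above 0 only without IRF2_KO 2 (adjusted p = 0.949). Besides glmTreat, 33 members were called lower under each alternative at a threshold of 0.05 in which they were tested; Ncl, one of them, was among the 100 most abundant genes and was not tested without those. Chosen after seeing the data were the fit without Parental 1 and IRF2_KO 1 (35 lower, median -0.318, Npm1 lost and Fbl gained) and removal of the trend over GC and length (median -0.327). No paired analysis was possible because the labels carry no replicate number. Depth limits the members little: the fewest reads of any in a library were 270.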

Other observations

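Within groups, the members spread along the GC content of their longest transcripts, which need not be the gene models counted. Deviations from the group mean had a correlation with transcript GC of -0.799 in Parental 1 and -0.628 in IRF2_KO 1, and of 0.609, 0.756, 0.689 and 0.0961 in Parental 2, Parental 3, IRF2_KO 2 and IRF2_KO 3 (Pearson, across 38 genes; deviations of a group sum to 0, so they are not independent). In Parental 1 the members with the lowest deviations were Fbl, Rrp9 and Bop1 and those with the highest were Gnl3, Nop58 and Npm1. The members' median deviation stayed between -0.029 and 0.016 on the log2 scale in every library. The 8 members with CACGTG in the promoter window all fell (median log2 fold change -0.341), and of the 25 members with a window but no CACGTG 23 fell (median over the 25, -0.318). Of the 5 members with no window, Bop1 among them, 4 fell (median -0.237). In the whole list 35 of 38 fell, and 23.6% of all tested genes were called lower. The difference between members with and without CACGTG was not tested.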
